A study of Homo sapiens with 9 samples.

Results

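The D-type cyclins, the kinases CDK4 and CDK6, the retinoblastoma protein RB1 and the inhibitors of these kinases were examined in RNA-seq libraries of Z138, an established cell line from mantle cell lymphoma. The genes were taken by symbol: CCND1, CCND2, CCND3, CDK4, CDK6, RB1, CDKN1B, CDKN2A, CDKN2C and CDKN2D. Of these 10, 9 were found among the 16586 genes measured, and CDKN2A was not analysed here. CCND2 stayed below the level set for testing, so 8 were tested.

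The series held 9 libraries in 3 groups of 3: wild-type Z138, Z138 with SOX11 knocked out (the knockout), and Z138 with the same SOX11 knockout to which SOX11 had been returned (the rescue). The rescue cells therefore also carry the knockout, and the cells of every group grew in RPMI-1640 medium with 10% fetal bovine serum and no drug named in the labels. The labels number the libraries 1 to 3 by batch, with 1 library of every group in each batch. They do not say whether libraries came from separate cultures, whether the knockout or the rescue is 1 clone, or how SOX11 was put back, so the p-values measure only the spread between these libraries.

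Progress from G1 into S phase is set by a short chain of proteins. A D cyclin binds CDK4 or CDK6, and the active kinase phosphorylates RB1, which then releases the E2F transcription factors that switch on genes for DNA synthesis. The INK4 inhibitors (CDKN2A, CDKN2C and CDKN2D) bind CDK4 and CDK6 directly, whereas CDKN1B, or p27, binds cyclin and kinase together and is best known for blocking CDK2. In mantle cell lymphoma a translocation places CCND1 beside the immunoglobulin heavy chain locus, and cells that normally use CCND2 or CCND3 make cyclin D1 instead. Most of these lymphomas also express SOX11, a neural transcription factor that normal B cells lack.

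Levels are given as normalized counts, reads per gene corrected for library depth, recovered from the deposited log2 values. Estimated depth was 30800000 to 40800000 reads per library, and 3 reads were worth 2.57 to 3.40 normalized counts. SOX11 itself stood at 3549 ± 474 (SD, n = 3) in the wild type, 1033 ± 262 in the knockout, with 13127 ± 627 in the rescue, so the rescue libraries held more SOX11 RNA than the wild type. Each pair of groups gave p = 0.10 in a two-sided exact permutation test of SOX11, the lowest value possible with 3 libraries against 3. All 8 B cell markers examined passed the filter, and their summed level was 46318 to 56562 over the 9 libraries. Without the batch as a block none of the 8 passed in the comparisons with the wild type, and in the rescue against the knockout PAX5 passed upward (0.68 on the deposited log2 scale, limma adjusted p = 0.0231) and BLK downward (-0.46, adjusted p = 0.000477). With the block 2 passed upward and 3 downward in the knockout against the wild type. The counts were 2 and 1 in the rescue against the knockout, and 3 and 3 in the rescue against the wild type. Over all genes 21.5%, 31.2% and 8.06% passed in either direction with the block, and 12.7%, 22.1% and 4.07% without it. Because these were bulk libraries, fewer cells of a kind and less RNA per cell cannot be told apart in any value below.

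CDK6 was the single gene of the set that differed in both directions. It rose 2.42-fold in the knockout against the wild type and fell 5.02-fold in the rescue against the knockout. CCND1 was 1.19-fold lower in the rescue than in the wild type, by a test that many alternative settings undid. None of the others passed the test in any comparison, and CCND2 was near 0 throughout.

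The D cyclins were almost wholly CCND1. CCND1 (ENSG00000110092.4, GRCh38, chromosome 11, 69641087 to 69654474, plus strand) had 128382, 136858 and 121217 normalized counts in wild-type libraries 1, 2 and 3. The knockout libraries had 118028, 126859 and 119308, and the rescue libraries 106492, 106410 and 110911. Every rescue library lay below every library of the other groups, while wild type and knockout overlapped. CCND1 ranked 9th to 11th of all genes by count in the wild type, 12th to 14th in the knockout and 15th to 17th in the rescue. It held 0.366% ± 0.0171 of all counts in the wild type, 0.345% ± 0.0107 in the knockout, with 0.310% ± 0.00831 in the rescue.

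On the deposited log2 scale the knockout and the wild type differed by -0.08 for CCND1 (95% interval -0.22 to 0.05, limma adjusted p = 0.422). The rescue was lower than the wild type by a log2 difference of -0.25 (SE 0.0602, 95% interval -0.38 to -0.12, adjusted p = 0.0411), in 3 of 3 batches. That call was lost in 12 of 21 alternative settings, among them leaving out any of 8 of the 9 libraries (all but wild-type library 3) or any batch, with adjusted p up to 0.331. Against the knockout the rescue differed by -0.17 (95% interval -0.30 to -0.04, adjusted p = 0.0688), and with the batch as a block the adjusted p was 0.0297.

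CCND3 (ENSG00000112576.13, chromosome 6, 41934933 to 42050357, minus strand), the D cyclin of germinal centre and precursor B cells, was far lower. It stood at 1033, 1068 and 1006 normalized counts in the wild type, 1105, 888 and 1166 in the knockout, with 1221, 1187 and 1230 in the rescue. The 3 rescue libraries lay above all the others, the opposite order to CCND1, and the knockout spread around the wild type. The rescue differed from the wild type by 0.15 (95% interval 0.01 to 0.29, adjusted p = 0.286) and from the knockout by 0.14 (-0.01 to 0.28, adjusted p = 0.160), neither past the threshold. Knockout and wild type differed by 0.01 (adjusted p = 0.941).

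CCND2 (ENSG00000118971.8, chromosome 12, 4273772 to 4305350, plus strand), the D cyclin that mature B cells usually carry, had 0, 2.11 and 0 normalized counts in the wild type. The knockout had 3.53, 1.06 and 5.69, and the rescue 0, 0.92 and 1.08. At the worth of about 3 reads or less in most libraries, no fold was taken and a difference between groups was not detectable at this depth.

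To compare genes with each other, counts were divided by the length of the principal annotated transcript, and the isoforms that Z138 uses were not analysed here. Per kilobase, CCND1 made up 98.4% ± 0.0496 of the summed D cyclins in the wild type, 98.2% ± 0.2998 in the knockout, with 97.7% ± 0.0388 in the rescue. CCND3 made up 1.64%, 1.77% and 2.27%. The log2 ratio of CCND3 to CCND1 was higher in the rescue than in the wild type by 0.48, and higher than in the knockout by 0.38 (exact two-sided permutation p = 0.10 each, adjusted p = 0.24 over 12 ratio tests). Knockout and wild type differed in this ratio by 0.10 (exact p = 0.50, adjusted p = 0.75).

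**Figure D1:**
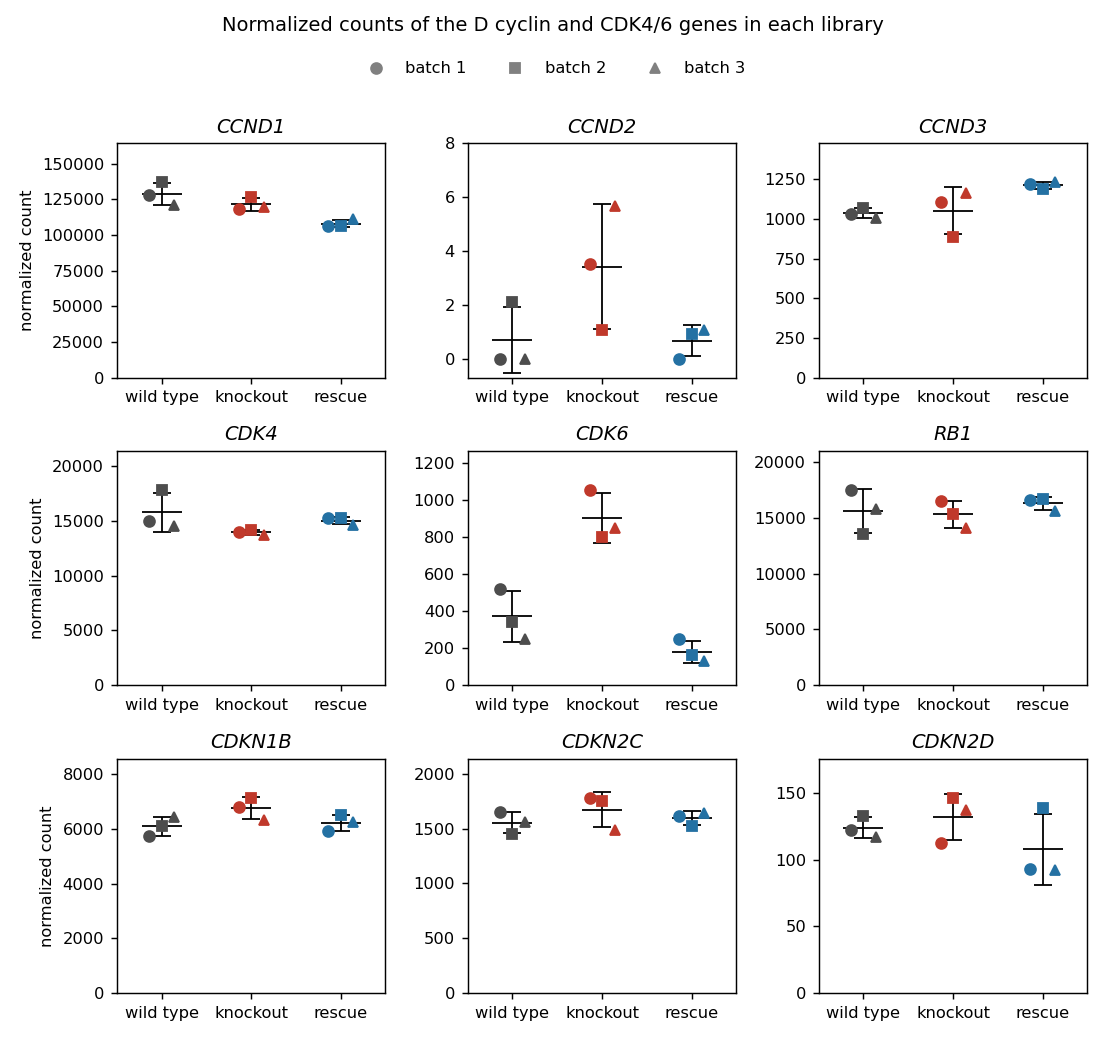
Normalized counts (vertical axes, each from 0 except CCND2, whose error bars pass below it) of the 9 measured genes in wild type, knockout and rescue; symbols mark batches 1 to 3, the long bar the mean and the short bars 1 SD. CDK6 separates the 3 groups, with 252 to 522 in the wild type, 800.2 to 1055 in the knockout and 129 to 248 in the rescue, and CCND1 is lowest in the rescue.

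CDK4 and CDK6 are the interchangeable kinase partners of the D cyclins. CDK4 (ENSG00000135446.17, chromosome 12, 57747727 to 57756013, minus strand) had 14962, 17788 and 14525 normalized counts in the wild type, 13990, 14123 and 13668 in the knockout, with 15205, 15228 and 14614 in the rescue. The knockout libraries were the lowest 3, and wild type and rescue overlapped. Knockout and wild type differed by -0.16 for CDK4 (95% interval -0.31 to -0.02, adjusted p = 0.143), and rescue and knockout by 0.10 (adjusted p = 0.312). Rescue and wild type differed by -0.06 (adjusted p = 0.721).

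CDK6 (ENSG00000105810.10, chromosome 7, 92604921 to 92836594, minus strand) is the kinase that dominates in many blood cells. Its wild-type libraries held 522, 344 and 252 normalized counts, the knockout libraries 1055, 800.2 and 851, and the rescue libraries 248, 162 and 129. No 2 groups overlapped, and the library of batch 1 was the highest within every group. The knockout exceeded the wild type by a log2 difference of 0.68 (SE 0.115, 95% interval 0.43 to 0.93, adjusted p = 0.00243), and the folds within batches 1, 2 and 3 were 2.02, 2.33 and 3.38. The rescue fell below the knockout by a log2 difference of -1.07 (95% interval -1.32 to -0.82, adjusted p = 6.47e-05), with lower folds of 4.26, 4.94 and 6.59 by batch. Both calls held in all 21 alternatives.

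The rescue also lay below the wild type in CDK6, 2.07-fold by the means and 2.10-, 2.12- and 1.95-fold within batches 1, 2 and 3. This difference of -0.39 (95% interval -0.64 to -0.14) missed the threshold with an adjusted p of 0.0964. With the batch as a block its adjusted p was 0.00240, and it also passed without wild-type library 3. The order rescue, wild type, knockout was thus the reverse of the order of SOX11 levels, in each batch. On the log2(CPM + 1) scale, which compresses low counts less, the 3 CDK6 differences were 1.244, -2.14 and -0.90.

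The change in CDK6 was among the larger ones in these cells. Of 11542 genes tested, 137 (1.19%) had a larger difference between knockout and wild type and 46 (0.399%) between rescue and knockout. Markers of T and NK cells were split. Their summed level, over 9 of 10 markers, was 426 to 514 in the wild type, 599 to 695 in the knockout and 523 to 616 in the rescue. CD3E and NKG7 passed the test upward in the knockout against the wild type. CD3E also passed upward in the rescue against the wild type (0.20, adjusted p = 0.0287), where CDK6 lay lower. TRAC passed upward in the rescue against the knockout (0.39, adjusted p = 0.0217). With the batch as a block TRAC passed downward (-0.21, adjusted p = 0.0106) and CD3G upward (0.19, adjusted p = 0.0484) in the knockout against the wild type. CD7 and TRBC2 were at 0 in every knockout library, and TRBC2 also in every rescue library. The part of such cells in the CDK6 values was not tested.

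Per kilobase CDK4 stood far above CDK6, so the kinase pool remained nearly all CDK4. CDK6 was 0.424% ± 0.170 of CDK4 plus CDK6 in the wild type, 1.14% ± 0.168 in the knockout, with 0.213% ± 0.0693 in the rescue. Put the other way, CDK4 exceeded CDK6 by 258 ± 85.7 times in the wild type, 87.6 ± 12.4 times in the knockout and 500.5 ± 147 times in the rescue. The log2 ratio of CDK6 to CDK4 differed by 1.503 between knockout and wild type, by -2.48 between rescue and knockout and by -0.98 between rescue and wild type (exact two-sided permutation p = 0.10 each, adjusted p = 0.24). In each of these comparisons the groups did not overlap.

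The stretch of 250 bases just before the first annotated CDK6 start is shown because CDK6 alone of the set passed in both directions. It is from RefSeq on GRCh38.p14, chr7:92836574-92836823, minus strand, 5′ to 3′, and 21 of its bases lie in the first exon of the slightly longer GENCODE model. Capitals mark the GC box GGGCGG on either strand, a motif chosen after the values were seen.
CDK6 upstream: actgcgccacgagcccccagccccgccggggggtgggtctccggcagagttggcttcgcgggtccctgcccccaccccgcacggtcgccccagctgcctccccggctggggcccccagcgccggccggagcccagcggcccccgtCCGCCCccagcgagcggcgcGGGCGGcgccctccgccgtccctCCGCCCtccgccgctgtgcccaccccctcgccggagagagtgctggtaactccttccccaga
The GC box occurred 3 times and CpG 30 times in this stretch. Of its bases 80% were G or C, against a median of 58% over the same 250 bases of all promoters. Only the 250 upstream bases of each promoter window of 300 bases were searched, here and below. GGGCGG on either strand was found in 42.6% of 35116 windows so searched. Neither ACAAAG, the core bound by SOX factors, nor TTTNNCGC, an E2F core, occurred on either strand in either CDK6 window, and these letters were found in 13.7% and 5.92% of all windows. Among the 14 windows of 8 of the genes (CCND1 and CCND2 had none), ACAAAG occurred in 1 CCND3 window and TTTNNCGC in that of CDKN2D. Not every window lies before the annotated gene: that of RB1 (chromosome 13, 48476200 to 48476449) lies inside it. In the CDK4 window 211 of the 250 bases lie in GENCODE exons. A match or its lack in so short a window is a description of letters and not of binding.

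**Figure D2:**
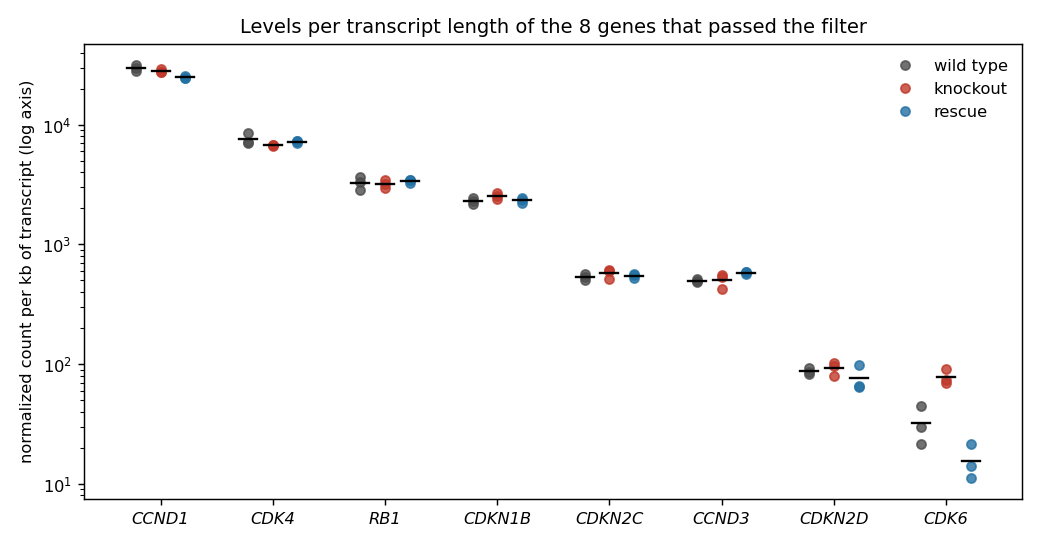
Normalized counts per kilobase of transcript (vertical, log axis) of the 8 tested genes; points are libraries, bars are group means, colours are wild type, knockout and rescue. CCND1 is highest in every group, and CDK6 is lowest but reaches the level of CDKN2D in the knockout.

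RB1, the substrate of these kinases, and the 3 inhibitors passed the test in no comparison. RB1 (ENSG00000139687.15, chromosome 13, 48303726 to 48599436, plus strand) had 17497, 13533 and 15785 normalized counts in the wild type, 16544, 15343 and 14082 in the knockout, with 16595, 16705 and 15615 in the rescue. All groups overlapped. The RB1 differences were -0.02 between knockout and wild type (adjusted p = 0.914), 0.09 between rescue and knockout (adjusted p = 0.509) and 0.07 between rescue and wild type (adjusted p = 0.762).

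CDKN1B (ENSG00000111276.11, chromosome 12, 12715058 to 12722371, plus strand) had 5736, 6109 and 6439 in the wild type, 6786, 7139 and 6330 in the knockout, with 5908, 6506 and 6236 in the rescue. Knockout libraries 1 and 2 were the highest, and knockout library 3 lay within the wild-type range. Its differences were 0.13 between knockout and wild type (95% interval 0.00 to 0.26, adjusted p = 0.180), -0.11 between rescue and knockout (adjusted p = 0.231) and 0.03 between rescue and wild type (adjusted p = 0.884).

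CDKN2C (ENSG00000123080.12, chromosome 1, 50960745 to 50974633, plus strand), the INK4 inhibitor p18, had 1651, 1454 and 1562 in the wild type, 1783, 1753 and 1490 in the knockout, with 1616, 1524 and 1644 in the rescue. CDKN2D (ENSG00000129355.7, chromosome 19, 10566462 to 10569059, minus strand), the INK4 inhibitor p19, had 122.5, 133 and 117 in the wild type, 113, 147 and 137 in the knockout, with 92.8, 139 and 92.1 in the rescue. The groups overlapped for both, and in CDKN2D the rescue library of batch 2 lay well above the other rescue libraries. CDKN2C differences lay between -0.05 and 0.07 and CDKN2D differences between -0.08 and 0.02, with adjusted p of 0.327 or more.

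The share of each measured inhibitor was taken per kilobase: CDKN1B held 78.6%, 79.1% and 78.9% of the sum of the 3 inhibitors in wild type, knockout and rescue, CDKN2C held 18.4%, 17.9% and 18.6%, and CDKN2D held 3.00%, 2.90% and 2.55%. The ratios of CDKN2C to CDKN2D and of CDKN1B to CDKN2C gave exact permutation p of 0.30 or more. Summed D cyclins exceeded the summed inhibitors 10.4-, 8.95- and 8.66-fold in the same order of groups, and exceeded the summed kinases 4.004-, 4.23- and 3.54-fold.

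By level per kilobase the order in the wild type was CCND1 (29909), CDK4 (7591), RB1 (3256), CDKN1B (2294), CDKN2C (536), CCND3 (497), CDKN2D (87.3) and CDK6 (32.1). Neighbours in this order did not overlap except CDKN2C and CCND3. In the knockout the order was the same, and CDK6, at 77.7, overlapped with CDKN2D, at 93.0. In the rescue CCND3 (582) stood above CDKN2C (549) without overlap, and CDK6 was at 15.5.

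Counts of calls were read against all genes tested. Between knockout and wild type 1 of the 8 tested genes passed upward and 0 downward, where 5.36% of all genes passed upward and 7.37% downward at an adjusted p under 0.05 (12.7% in either direction). Between rescue and knockout 0 passed upward and 1 downward, where the shares were 11.5% and 10.7% (22.1% in either direction). Between rescue and wild type 0 passed upward and 1 downward, where they were 2.3% and 1.78% (4.07% in either direction). With the batch as a block 2 passed downward in each of the comparisons of the rescue. With it 31.2% of all genes passed in either direction against the knockout and 8.06% against the wild type. Groups did not overlap for 2, 4 and 3 of the 8 genes in the same order, against 29.5%, 41.8% and 20.8% of all genes.

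A count of 1 among 8 genes is near the 12.7% of the first comparison, below the 22.1% of the second and above the 4.07% of the third. Nothing about the set as a whole was read from it. The median difference over the 8 genes was 0.02 between knockout and wild type, -0.06 between rescue and knockout and -0.02 between rescue and wild type, beside 0.00, -0.01 and 0.00 over all genes. CDK6 passed in opposite directions in the first and second comparisons, as did 9.7% of all genes, and these comparisons share the knockout libraries.

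**Figure D3:**
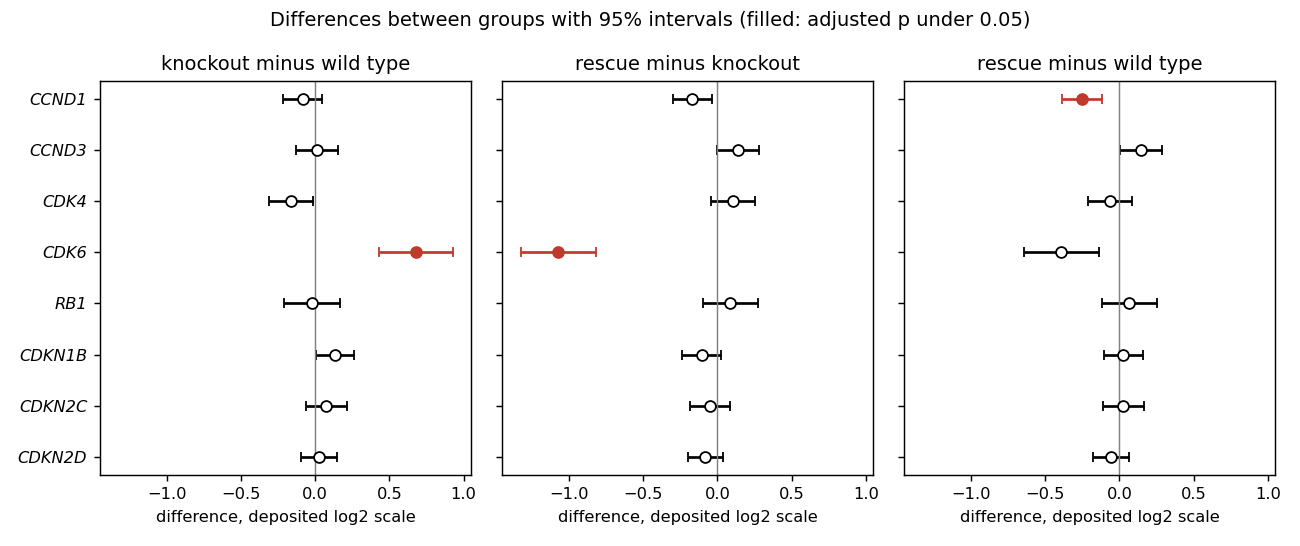
Differences on the deposited log2 scale (horizontal) for the 8 tested genes in the 3 comparisons, with 95% intervals; filled points have a limma adjusted p under 0.05. CDK6 is filled at 0.68 and -1.07, CCND1 at -0.25 in rescue minus wild type, and CDK6 in the same panel lies at -0.39 without passing.

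The genes that act with or after cyclin D and CDK4/6 were taken as 7 lists of 61 genes, 60 of them tested. Between knockout and wild type 1 passed upward (1.67%) and 2 downward (3.33%), and between rescue and knockout 5 passed upward (8.33%) and 6 downward. Between rescue and wild type 0 passed upward and 2 downward. Of all genes 5.36% and 7.37%, 11.5% and 10.7%, and 2.3% and 1.78% passed upward and downward in these comparisons. With the batch as a block the counts were 6 and 9, 7 and 16, and 0 and 4, where 21.5%, 31.2% and 8.06% of all genes passed in either direction.

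CDK2, the kinase of cyclins E and A that completes RB1 phosphorylation, moved opposite to CDK6. It had 5746, 6445 and 5754 normalized counts in the wild type, 4180, 4268 and 4850 in the knockout, with 5869, 6513 and 6677 in the rescue. The knockout libraries lay below all the others. CDK2 fell 1.35-fold in the knockout (log2 difference -0.38, adjusted p = 0.00343) and rose 1.43-fold in the rescue against the knockout (0.46, adjusted p = 6.79e-04), and both calls held in all 21 alternatives. Of its list of 5, cyclin E1, cyclin E2 and the phosphatase CDC25A passed in no comparison, and with the batch as a block CDC25A passed downward in the rescue against the knockout (adjusted p = 0.0227). CCNA2, or cyclin A2, fell by 0.21 between knockout and rescue (adjusted p = 0.0450), a call that 13 of 21 alternatives undid, and with the block it also passed upward in the knockout against the wild type (adjusted p = 0.0375).

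CDKN1A, or p21, the inhibitor induced by p53, had 7902, 7140 and 8437 in the wild type, 6945, 6590 and 7940 in the knockout, with 5600, 4100 and 5118 in the rescue. Every rescue library lay below the rest. CDKN1A fell 1.45-fold in the rescue against the knockout (-0.48, adjusted p = 0.00532) and 1.58-fold against the wild type (-0.60, adjusted p = 0.00576). Without batch 3 the adjusted p values were 0.0777 and 0.117.

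CDKN1C, or p57, a second inhibitor of the same family as p27, had 1933, 1252 and 1361 in the wild type, 813, 620.5 and 1285 in the knockout, with 2095, 1333 and 1798 in the rescue. Knockout library 3 stood above the other knockout libraries and within the wild-type range. CDKN1C rose 1.92-fold in the rescue against the knockout (0.64, adjusted p = 0.0176), and the call was lost without knockout library 1 or 2, without rescue library 1 or 3, or without batch 1 (adjusted p up to 0.140). Knockout and wild type differed by -0.50 (adjusted p = 0.0743, or 0.0110 with the batch as a block). CDKN2B, the INK4 inhibitor p15, was not analysed here.

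Among the 12 pocket proteins and E2F factors, E2F3 passed upward in the rescue against the knockout (0.23, adjusted p = 0.0469), a call lost in 12 of 21 alternatives. None of the 12 passed in the other comparisons, RBL1, RBL2 and E2F1 included. With the batch as a block RBL2 passed upward in the knockout against the wild type (adjusted p = 0.0392), where 21.5% of all genes passed in either direction. In the rescue against the knockout 2 of the 12 then passed upward and 1 downward, where 31.2% of all genes passed. None of the 3 parts of the CDK-activating kinase (CDK7, cyclin H and MNAT1) passed without the block, and with it MNAT1 passed upward in the knockout against the wild type (0.13, adjusted p = 0.0488).

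Of 10 genes for the turnover of D cyclins and p27, CKS1B and FBXO4 passed, 1 in each comparison of the rescue. Without the block 22.1% of all genes passed in either direction against the knockout and 4.07% against the wild type. CKS1B, the cofactor by which SKP2 recognises p27, fell 1.18-fold in the rescue against the knockout (-0.21, adjusted p = 0.0146), with the call lost without knockout library 3, rescue library 2, batch 1 or batch 3. FBXO4, an F-box protein reported to target cyclin D1, had 105, 133 and 101 in the wild type, 70.7, 89.4 and 53.5 in the knockout, with 37.5, 49.3 and 32.8 in the rescue. The 3 groups did not overlap and the order held in every batch. FBXO4 was 2.83-fold lower in the rescue than in the wild type (-0.31, adjusted p = 0.00749), a call lost without batch 1 or batch 3. SKP2, AMBRA1 and GSK3B passed in no comparison without the block. With it 2 of the 10, FBXO4 and SKP2, passed downward in the knockout against the wild type (adjusted p = 0.0235 and 0.0498). In the rescue against the knockout 3 passed downward. Over all genes 21.5% and 31.2% passed in either direction in these comparisons with the block.

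The E2F targets of S phase were 18 genes of DNA replication and nucleotide supply. In the knockout against the wild type 1 passed downward (5.56%, beside 7.37% of all genes), GINS2, and 17 did not pass. With the batch as a block 1 passed upward and 5 downward there, 3 upward and 6 downward in the rescue against the knockout, and 2 downward in the rescue against the wild type. The first 2 of these counts were 33.3% and 50% of the list in either direction, beside 21.5% and 31.2% of all genes, and 8.06% of all genes passed in the third comparison. In the rescue against the knockout RRM2 (0.22, adjusted p = 0.0431) and UHRF1 (0.28, adjusted p = 0.0409) passed upward and TK1, thymidine kinase, passed downward. TK1 fell 1.29-fold (-0.32, adjusted p = 0.00135) and kept that call in all 21 alternatives, whereas GINS2, RRM2 and UHRF1 lost theirs in 11, 10 and 9. The list's median difference was -0.07, -0.03 and -0.06 in the 3 comparisons, and none of the 6 MCM helicase genes passed in any without the block.

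Among 10 genes of mitosis and proliferation, PLK1, the polo-like kinase of mitotic entry, rose 1.29-fold in the knockout (0.34, adjusted p = 0.00693) and fell 1.20-fold in the rescue against it (-0.24, adjusted p = 0.0267). The first call was lost without batch 1 or 2, and the second in 7 of 21 alternatives. CDC20, an activator of the anaphase-promoting complex, fell in the rescue against the knockout (-0.17, adjusted p = 0.0334), a call lost in 11 of 21, and with the block it passed upward in the knockout (adjusted p = 0.0228). MKI67, TOP2A, CDK1 and cyclins B1 and B2 passed in no comparison. With the block AURKA passed downward in the rescue against the knockout (limma adjusted p = 0.0252). Of the 10 genes 0 passed upward and 3 downward there, where 31.2% of all genes passed in either direction. PLK1 and CDK2 were the 2 of these 60 genes that passed in opposite directions in the knockout and the rescue without the block (3.33%, beside 9.7% of all genes). With the block these were 8 (13.3%, beside 16.2% of all genes), adding CCNA2, CDKN1C, MCM7, RRM2, TK1 and CDC20.

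**Figure D4:**
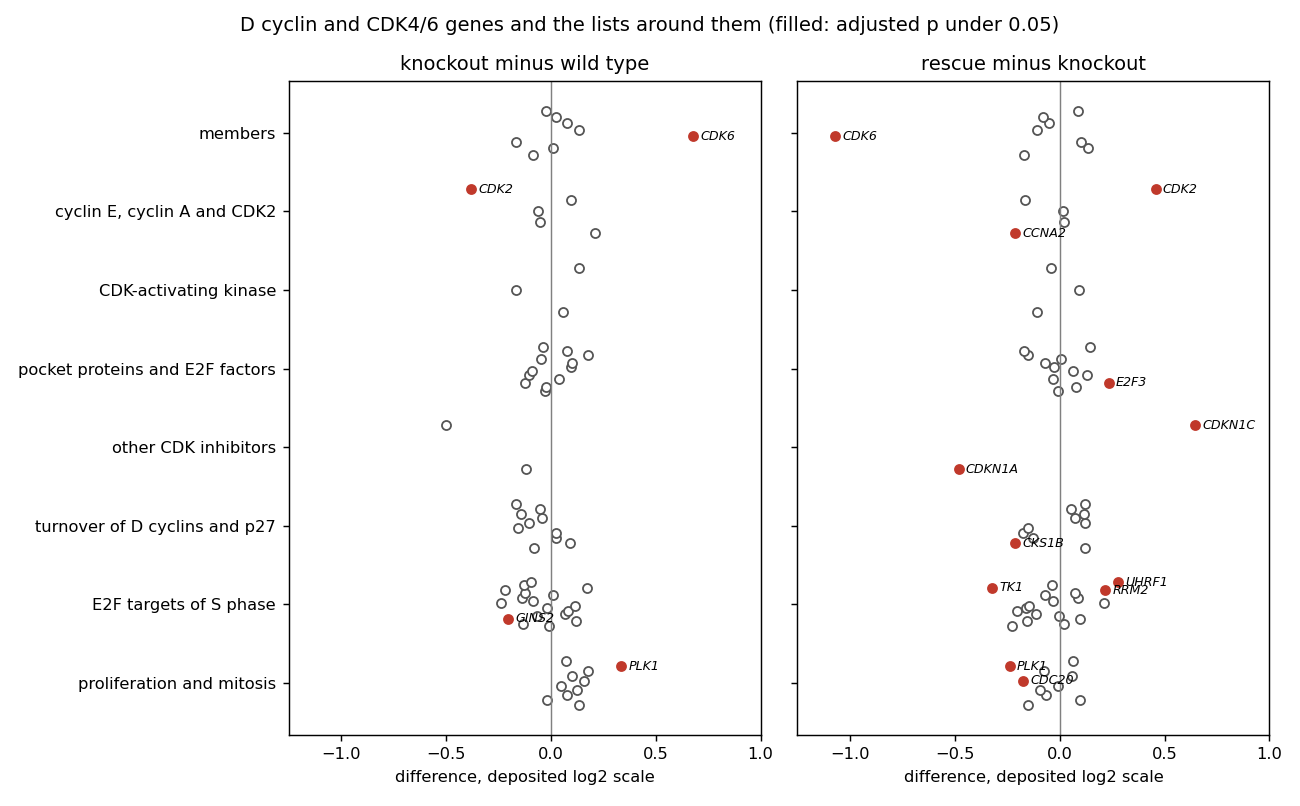
Differences on the deposited log2 scale (horizontal) for the tested members and 7 related lists (rows), knockout minus wild type at left and rescue minus knockout at right; each point is a gene, and filled, named points have a limma adjusted p under 0.05. CDK6 lies farthest from 0 in both panels, and CDK2 changes on the opposite side of 0 from it.

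The neighbours of CDK6 and CCND1 were followed along the chromosome. Of 12 genes listed within 1 Mb of CDK6, 11 were tested. SAMD9L, an interferon-induced gene 312 kb from the CDK6 start, had 595, 435 and 669 in the wild type, 926, 812 and 850 in the knockout, with 582, 408 and 504 in the rescue. Knockout libraries lay above all others, as for CDK6. SAMD9L rose 1.52-fold in the knockout (0.34, adjusted p = 0.0231) and fell 1.73-fold in the rescue (-0.44, adjusted p = 0.00428). The first call was lost without wild-type library 2, knockout library 1 or 3, or batch 1 or 3, and the second without batch 3.

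GATAD1, on the other side of CDK6, rose 1.39-fold in the rescue against the knockout (0.30, adjusted p = 0.00600), a call lost without batch 1 or 3. Another 8, SAMD9, FAM133B and KRIT1 among them, passed in no comparison. Among the genes of this stretch reported here, CDK6 and SAMD9L were therefore the 2 that were high in the knockout by this test.

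Of 11 genes listed around CCND1, 6 were analysed here and 5 tested. CTTN, cortactin, 757 kb from CCND1, had 166, 172 and 117 in the wild type, 54.9, 66.9 and 53.9 in the knockout, with 105, 135 and 93.8 in the rescue. It fell 2.59-fold in the knockout (-0.33, adjusted p = 0.00277, lost without batch 1) and rose 1.90-fold in the rescue against it (0.20, adjusted p = 0.0243). The rise was lost in 7 of 20 alternatives. TPCN2, a lysosomal channel on the other side, fell 1.26-fold in the rescue against the knockout (-0.23, adjusted p = 0.0349), a call lost in 8 of 21. LTO1, the nearest at 34.3 kb, differed by 0.05 and -0.05 in these comparisons. FADD and PPFIA1 did not pass either without the batch as a block. With it FADD passed downward in the rescue against the knockout (limma adjusted p = 0.0328). TPCN2 then passed downward in the rescue against the wild type (limma adjusted p = 0.0374). Of all genes 31.2% and 8.06% passed in either direction there with the block.

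**Figure D5:**
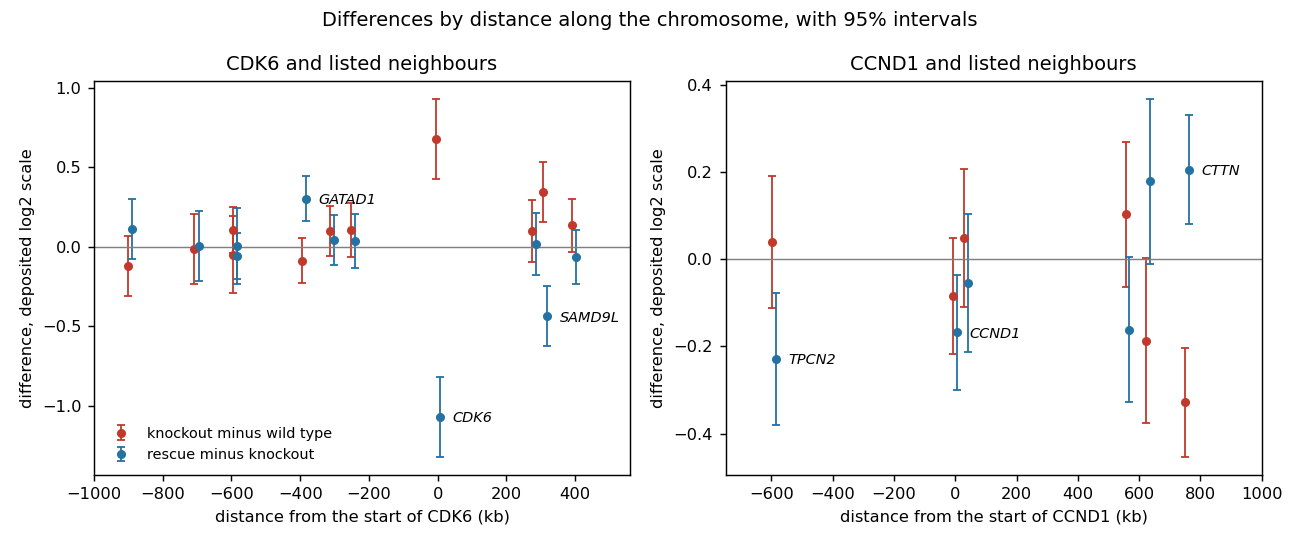
Differences on the deposited log2 scale (vertical) with 95% intervals against distance in kb from the start of CDK6 (left) and CCND1 (right), for the gene itself at 0 and the tested neighbours reported here; the 2 comparisons are shifted 6 kb to either side. SAMD9L at 312 kb shows the same signs as CDK6, and CTTN at 757 kb is lower in the knockout while CCND1 is near 0.

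The genes nearest in pattern were found by the root mean square difference between log2 profiles over the 9 libraries, each centred on its own mean. For CDK6, whose own profile had a root mean square of 0.465, the nearest were PEG10 (0.171), SYNPO (0.174) and NR3C1 (0.175). PEG10, a retrotransposon-derived gene also on chromosome 7 (94656325 to 94669695), averaged 14137 ± 2102 in the wild type, 28249 ± 4074 in the knockout, with 12721 ± 1583 in the rescue. SYNPO, an actin-associated protein, averaged 842, 1555 and 554, and NR3C1, the glucocorticoid receptor, 1007, 1611 and 629. By their means all were highest in the knockout and lowest in the rescue, as CDK6 was. They were picked for this likeness, so the shared order is no separate result. Rescue and wild type differed by -0.14 for PEG10 (limma adjusted p = 0.643), -0.34 for SYNPO (adjusted p = 0.00663) and -0.40 for NR3C1 (adjusted p = 0.00895).

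For CCND1, whose own profile had a root mean square of 0.117, the nearest was SOX12 (0.0248), a transcription factor of the same SOXC family as SOX11. SOX12 averaged 3128 ± 269 in the wild type, 2961 ± 206 in the knockout, with 2546 ± 103 in the rescue. YIF1B (0.0420) and SHMT2 (0.0424), the mitochondrial serine hydroxymethyltransferase, came next. Genes with a flat profile are close to many others by this measure, and it is given as a description.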

How the data were processed

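RNA-seq of 9 Z138 libraries was analysed, 3 each of wild type, SOX11 knockout and SOX11 rescue. Per the labels, polyadenylated RNA was prepared with either of 2 kits, stranded or not, and read as single or paired ends. The kit of each library is not known, and antisense pairs are therefore uncertain. kallisto 0.46.1 on GRCh38.p13, DESeq2 1.24.0 in R 4.3.2, Trimmomatic 0.40 and FastQC 0.11.9 are the tools that the submitters' processing notes name. The authors deposited log2 values for 16586 genes (1 without a symbol). They are named log CPM but are variance-stabilized: all libraries share the minimum 8.59849. Inverting that transform (constant 387.618) gave normalized counts, whose low values are whole multiples of 1 read (within 0.05 of a step for 83.8% to 98.5% of values of single-transcript genes, 43.9% to 51.2% over all genes), and so the estimated depth. Intervals and floors cover these libraries and counting error only.

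The deposited log2 values of all 9 libraries were fitted with limma 3.58.1 (R 4.3.3), 1 mean for every group with a trended prior variance, over the 11542 genes that reached a CPM of 1 in 3 or more libraries. Benjamini-Hochberg adjustment ran over all of them, with a threshold of 0.05. The planned scale was log2 CPM; the values as deposited were tested instead. Differences on this scale understate low genes, so folds are ratios of mean normalized counts. SOX11 and the log2 ratios between members had exact permutation tests, and the members themselves were tested with limma only. The fit was tested on simulated data. The batch in the labels, equal to the replicate number, pairs the libraries across groups: deviations of same-numbered libraries correlated at 0.187 to 0.51, and 9 of 9 libraries correlated best with their own number. The block was an alternative, as were no filter, a stricter one (CPM of at least 4), log2(CPM + 1), log2(CPM + 0.5), quantile normalization, median centring, a constant prior, fits of only the groups compared, and fits without each library or each batch in turn.

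Members and lists were chosen with earlier results of these data known. The genes named were the members, up to 4 genes per list and comparison with the smallest adjusted p among those called, the listed neighbours (1 of which is not reported here), and the 3 genes nearest in pattern to CDK6 and CCND1. Others named as not passing are examples from the lists. Marker lists other than those of B cells and T and NK cells gave 4 of 8 myeloid genes (0 tested) and 4 of 6 fibroblast genes (1 tested). Summed myeloid counts were 15.6 to 22.6 in the wild type, 44.0 to 47.9 in the knockout and 44.6 to 56.5 in the rescue. Summed fibroblast counts were 928 to 1301, 1020 to 1294 and 728 to 954 in the same order. Differences in these sums were not tested. Positions and transcript lengths are from GENCODE release 29 on GRCh38, which matched 16461 genes, and promoters from RefSeq on GRCh38.p14. Figures were drawn with matplotlib 3.10.9.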

Additional observations from a re-analysis of the deposited data

How the results depend on the processing

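The rise of CDK6 in the knockout and its fall in the rescue against the knockout kept direction and call in all 21 alternatives, with adjusted p up to 0.0471 without 1 batch. The count of members lower in the rescue than in the knockout was 2, in place of 1, with the replicate block and with only the groups compared, and 1 to 2 when a library was left out (2 without wild-type library 2 or 3). The count lower in the rescue than in the wild type was 2 with the replicate block, 0 with only the groups compared, 0 without each of the 3 batches, and 0 to 2 when a library was left out. The replicate block changed no other call among the members. With it 31.2% of all genes passed in either direction in the rescue against the knockout, and 8.06% against the wild type.

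Differences near 0 that had not passed changed sign. For knockout minus wild type, CCND3 ranged from -0.0385 to 0.0850 over left-out libraries and was -0.0146 without batch 1 and -0.0515 without batch 3. RB1 ranged from -0.115 to 0.0619 and was 0.00765 without batch 1 and 0.0474 without batch 3. For rescue minus wild type, the ranges over left-out libraries were -0.115 to 0.0250 for CDK4 (0.0152 without batch 2), -0.0270 to 0.1496 for RB1 (-0.0440 without batch 2), -0.0123 to 0.0621 for CDKN1B (-0.00175 without batch 2) and -0.00759 to 0.0574 for CDKN2C.

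The log2 ratio of CDKN2C to CDKN2D, knockout minus wild type, ranged from -0.137 to 0.134 over left-out libraries and was -0.0840 without batch 1 and -0.0340 without batch 2. That of CDKN1B to CDKN2C ranged from -0.0437 to 0.0937 between knockout and wild type (-0.00109 without batch 1) and from -0.0951 to 0.0423 between rescue and wild type (0.0480 without batch 3), and was 0.00461 without batch 3 between rescue and knockout. The cause was not tested. Ratios were recomputed for left-out libraries and batches only, and CDKN2D, CTTN and FBXO4 fell under the stricter filter. With 3 libraries a group no exact test can go below 0.10, and at this depth CCND2 cannot be compared.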

Other observations

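CDK7, the kinase that activates CDK4 and CDK6, was low in batch 3 alone: it had 205 normalized counts in knockout library 3 and 180 in rescue library 3, 446 in wild-type library 3, and 618 to 779 in the other 6 libraries.

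Around CDKN2A, 8 genes were listed, 4 were analysed here and 3 were tested. MTAP averaged 1862, 2054 and 1969 in wild type, knockout and rescue, and MTAP, KLHL9 and FOCAD passed in no comparison; with the batch as a block KLHL9 (adjusted p = 0.0324) was higher and FOCAD (adjusted p = 0.0496) lower in the rescue than in the knockout. HACD4, below the level tested, had 28.5, 31.7 and 39.8 normalized counts in the wild type, 4.41, 4.23 and 2.28 in the knockout, and 5.23, 2.76 and 3.24 in the rescue. Wild type lay above both other groups, which overlapped. The difference was not tested.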
